A study of Caenorhabditis elegans with 12 samples.

Results

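The nuclear-encoded subunits of the mitochondrial respiratory chain were examined in whole Caenorhabditis elegans of 4 genotypes. The members were the genes whose symbol begins with nuo-, ndua-, ndub-, nduf-, ndus-, cox-, ucr-, sdh, atp- or asg-, together with gas-1, mev-1, isp-1, lpd-5 and cyc-1, without the mitochondrially encoded atp-6. The rule used names alone, but it was set with earlier results of these data known. It found 63 of the 46739 genes listed. Of these, 30 were for complex I, 5 for complex II, 7 for complex III, 14 for complex IV and 7 for complex V. All 63 passed the filter on low counts. By the WBcel235 annotation, 20 lay on chromosome I, 11 on II, 14 on III, 9 on IV, 4 on V and 5 on X.

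Total RNA was sequenced from worms grown at 20 °C and collected in late L4, the last larval stage, with 3 libraries per genotype. The genotypes were wild-type (strain N2), eat-2(ad465) (strain DA465), acs-20(tm3232) (strain DCL29) and the eat-2(ad465); acs-20(tm3232) double mutant (strain DCL33). The product of eat-2 is part of a nicotinic receptor in pharyngeal muscle. Its mutants pump and feed slowly, which makes them a genetic model of dietary restriction. The acs-20 product takes up fatty acids and activates them with coenzyme A. Each mutant genotype was a single strain, and the labels do not say whether the 3 libraries came from separate cultures, so p-values measure only the spread between these libraries.

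The respiratory chain sits in the inner mitochondrial membrane. Complex I takes electrons from NADH and complex II takes them from succinate, ubiquinone carries them to complex III, and cytochrome c carries them on to complex IV, where oxygen is reduced. Complexes I, III and IV pump protons, and complex V, the ATP synthase, uses the gradient to make ATP. Most subunits are encoded in the nucleus and a few core ones in the mitochondrial genome. In C. elegans, mild loss of some subunits, such as the Rieske protein ISP-1 or the complex I subunit NUO-6, lengthens life, whereas mutants of gas-1 and mev-1 are sensitive to oxygen.

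Counts in genes ran from 7116623 to 12016769 per library, and ribosomal RNA genes took 2.09% to 6.29% of them. Levels are given in CPM, read counts relative to a TMM-scaled library size, and changes as log2 fold changes from edgeR's quasi-likelihood test, adjusted by the Benjamini-Hochberg method over 14390 tested genes. A gene is said to have risen or fallen where the adjusted p was under 0.05. The labelled mutations could not be checked from these counts. eat-2 was read 3 times over the 3 wild-type libraries and 0 times over those of the eat-2 mutant, within a floor of 3 counts per genotype, and acs-20 differed by -0.15 (SE 0.135, adjusted p = 0.658) between the acs-20 mutant and wild-type. Between the double mutant and wild-type acs-20 changed by -0.54 (SE 0.136, adjusted p = 0.0148), a call that was lost when wild-type replicates 1 or 3 or double mutant replicate 2 were left out (adjusted p up to 0.0712) and with library totals alone (0.0513).

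The chain took a smaller part of the RNA in both strains that carry the eat-2 mutation. Its 63 members together held 1.89%, 1.92% and 1.84% of the counts in genes of the wild-type libraries, 1.72%, 1.69% and 1.72% of the eat-2, 1.94%, 1.87% and 1.93% of the acs-20 and 1.61%, 1.64% and 1.67% of the double mutant libraries. The eat-2 and double mutant libraries lay below every wild-type and acs-20 library, the double mutant lay below eat-2, and acs-20 overlapped wild-type. These shares depend on no scaling factor, and their 95% Wilson intervals, which cover counting error only, reached at most 0.0101 percentage points to either side. In TMM-scaled CPM the members summed to 19958, 19459 and 19999.9 in wild-type, 18070.2, 16185 and 17265 for eat-2, 19503, 18895 and 19299.8 for acs-20 and 14713, 15690.0 and 16444 for the double mutant. In these sums the eat-2 and double mutant libraries overlapped each other, and both lay below every wild-type and acs-20 library. In whole worms, fewer cells of a type and less RNA per cell cannot be told apart.

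Subunit RNAs were abundant, and their levels per kilobase of exon differed among the complexes. In wild-type, the complex V members had a median of 586 CPM per kilobase and ran from 336 to 1884. atp-2, the catalytic beta subunit of the ATP synthase, was the highest of all members at 1884 ± 34.9 CPM per kilobase (SD, n = 3), followed by the alpha subunit atp-1 at 1544 ± 15.3. The 7 structural subunits of complex IV lay close together, from 564 to 874 CPM per kilobase, and complexes III, II and I had medians of 268, 208 and 179. The other 7 cox- genes, which do not encode structural subunits, were the lowest group, with a median of 14.3 CPM per kilobase and a range of 5.72 to 57.0. This group holds cox-10 and cox-15, which make the heme of complex IV, cox-11, cox-17 and cox-19, which deliver its copper, and cox-18, which inserts a core subunit into the membrane. Among libraries of 1 genotype the members varied with a median coefficient of variation of 5.95%, and the widest spread, 25.1%, belonged to cox-17, the member with the lowest mean level at 1.96 CPM.

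The double mutant was compared with wild-type to ask how the chain stood when both mutations were present. Of 63 members, 44 fell and 1, asg-1, rose, where 8.62% of all tested genes were called lower and 8.94% higher. The falls were small. They ran from -0.28 to -0.57 in log2, none reached 2-fold, and the median among the called members was -23.2%. The median log2 fold change of all members was -0.35, against 0.04 over all tested genes, and in 50 members every double mutant library lay below every wild-type library, as in 16.1% of all tested genes. Scaled by library totals alone, without TMM factors, the members' median moved to -0.20, that of all tested genes to 0.18, and 18 members were called lower. The members' median relative to that of all tested genes was -0.39 with either scaling. A change of scaling shifts all genes by nearly the same amount, so this value could not show whether the scaling matters. Leaving out wild-type replicate 3 lowered the count to 24 and leaving out wild-type replicate 1 to 29.

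**Figure D1:**
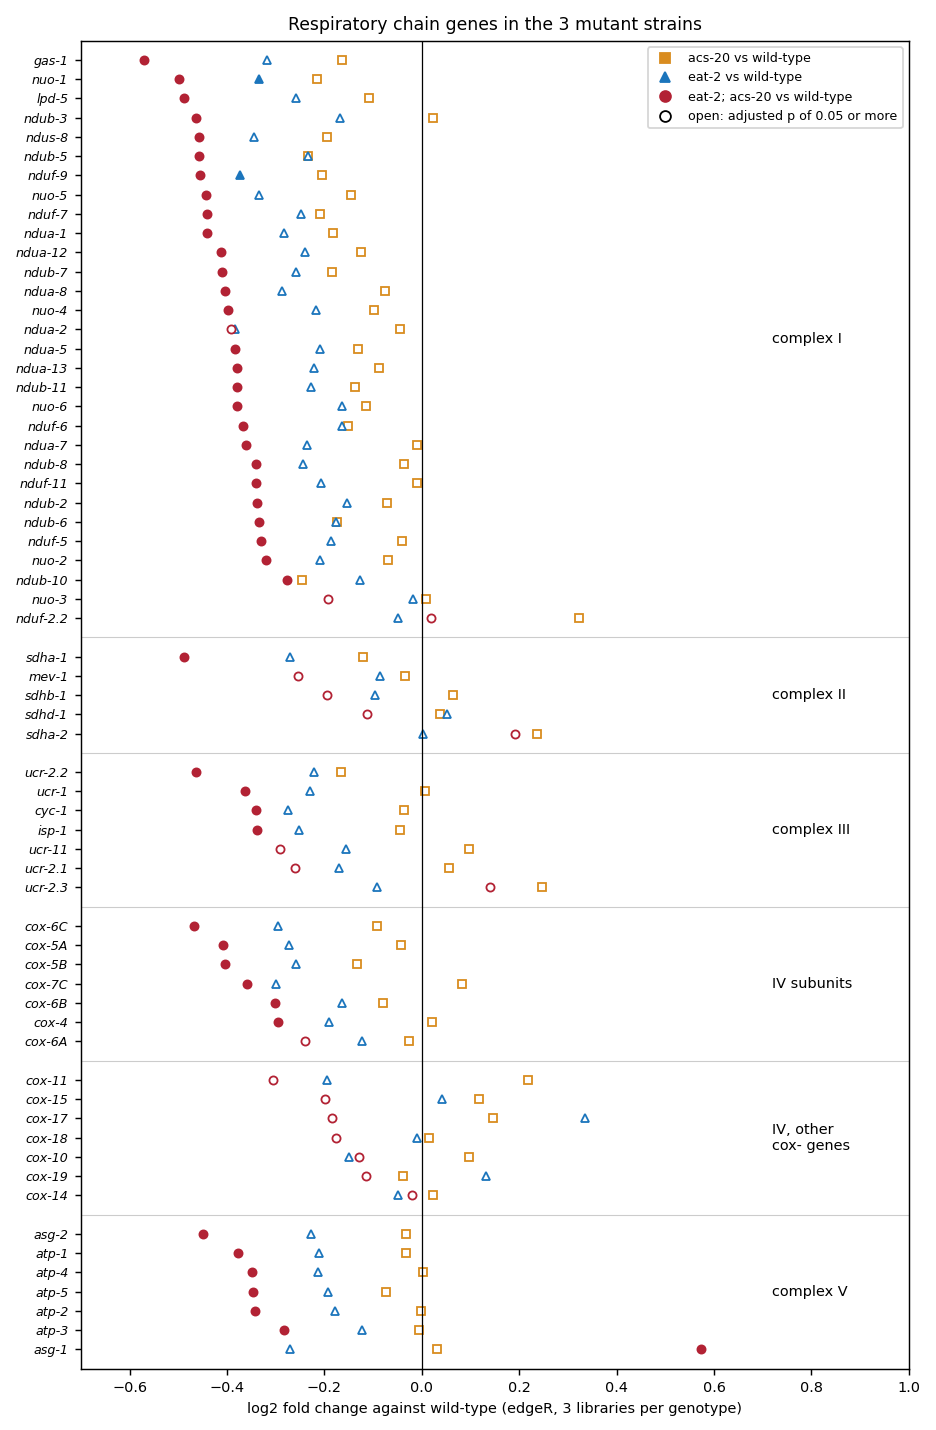
Log2 fold change against wild-type (horizontal axis) of each of the 63 members (rows, grouped by complex) in acs-20 (squares), eat-2 (triangles) and the double mutant (circles), from 3 libraries per genotype; filled symbols have an adjusted p under 0.05. In the double mutant 44 members are filled to the left of 0 and asg-1 alone to the right, at 0.57.

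Complex I, the NADH dehydrogenase, is the largest group, with 30 of the 63 members, and contributed most of the calls. In the double mutant 27 of its 30 members fell, with a median log2 of -0.39 over all 30. Leaving out wild-type replicate 3 lowered this count to 12, wild-type replicate 1 to 17 and double mutant replicate 2 to 16. nuo-1, which encodes the NADH-binding flavoprotein, was measured at 395, 399 and 413 CPM in wild-type, 325, 325 and 307 with eat-2 mutated, 339, 340.3 and 361 with acs-20 mutated and 255, 299.8 and 299.8 with both mutated. No library of the 3 mutants reached the wild-type levels, and the double mutant lay below both single mutants. nuo-1 was 29.2% lower in the double mutant than in wild-type, at a log2 of -0.50 (SE 0.0880, adjusted p = 0.00179).

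gas-1, which encodes a subunit of complex I, had the largest fall of all members, with 267, 259 and 298 CPM in wild-type, 247, 198 and 216 with eat-2 mutated, 258, 225 and 253 with acs-20 mutated and 165, 186 and 204 with both mutated. Every mutant library was below every wild-type library, although the eat-2 and double mutant libraries overlapped. Its log2 change was -0.57 (SE 0.113, adjusted p = 0.00365) in the double mutant and -0.32 (adjusted p = 0.107) in eat-2, where it was not called. lpd-5, the ortholog of NDUFS4, had 115, 122 and 126 CPM in wild-type, 107, 91.5 and 104 with eat-2 mutated, 113, 115 and 109 with acs-20 mutated and 81.2, 82.4 and 94.8 with both mutated. All its eat-2 and double mutant libraries also lay below wild-type, whereas acs-20 replicate 2 and wild-type replicate 1 were both at 115.4 CPM. The log2 change of lpd-5 was -0.49 (SE 0.0943, adjusted p = 0.00320) in the double mutant. nuo-6, the ortholog of NDUFB4, had 145, 136 and 148 CPM in wild-type, 139.7, 114 and 128 with eat-2 mutated, 139, 124 and 133 with acs-20 mutated and 106, 109 and 114 with both mutated. Here the eat-2 and acs-20 libraries overlapped wild-type and the double mutant lay below all 3 other genotypes, at a log2 of -0.38 (adjusted p = 0.0137). The nuo-6 call ended without wild-type replicate 1 (adjusted p = 0.0511) or replicate 3 (0.0504).

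The other called members of complex I included the iron-sulfur and hydrophilic core genes nuo-5, ndus-8, nduf-7 and nuo-2, at -0.44, -0.46, -0.44 and -0.32, and the accessory subunit nduf-9 at -0.46. Only 3 of the 30, ndua-2, nuo-3 and nduf-2.2, were not called. ndua-2 was at -0.39 (adjusted p = 0.0847), with libraries that overlapped wild-type, nuo-3 at -0.19 (adjusted p = 0.161) and nduf-2.2 at 0.02 (adjusted p = 0.947). nuo-3 shares 783 bp of exon on its own strand with another annotated gene, so its count is uncertain.

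Complex II, succinate dehydrogenase, had a median log2 of -0.19 in the double mutant over 5 members, and 1 of them fell, or 2 without eat-2 replicate 1 or 2. That member was sdha-1, which encodes the flavoprotein subunit, with 249.6, 233 and 263 CPM in wild-type, 215, 199 and 204 with eat-2 mutated, 233, 220.4 and 232 with acs-20 mutated and 148, 193 and 190.0 with both mutated. All 9 mutant libraries were below wild-type and the double mutant was lowest, at a log2 change of -0.49 (SE 0.106, adjusted p = 0.00658). mev-1, the cytochrome b subunit that anchors the complex, had 149.5, 152 and 157 CPM in wild-type, 155, 131 and 146 with eat-2 mutated, 152, 146 and 149.8 with acs-20 mutated and 130.4, 119.7 and 134 with both mutated. Its eat-2 and acs-20 libraries overlapped wild-type. The double mutant lay below wild-type, but the change of -0.25 (SE 0.0888, adjusted p = 0.0649) was not called. The iron-sulfur subunit sdhb-1 and the second anchor sdhd-1 were at -0.19 and -0.11, neither called.

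In complex III, the ubiquinol to cytochrome c step, 4 of 7 members fell in the double mutant, namely ucr-1, ucr-2.2, isp-1 and cyc-1. isp-1, the Rieske iron-sulfur protein, was measured at 504, 464 and 494 CPM in wild-type, 425, 381 and 421 with eat-2 mutated, 498, 453 and 466 with acs-20 mutated and 368, 389 and 397 with both mutated. The eat-2 and double mutant libraries lay below all wild-type and acs-20 libraries, and the acs-20 libraries overlapped wild-type. The log2 change of isp-1 was -0.34 (SE 0.0840, adjusted p = 0.0135) in the double mutant and -0.25 (adjusted p = 0.0874) in eat-2, and the call in the double mutant ended without wild-type replicate 1 (adjusted p = 0.0591). ucr-1, a core protein of the complex, had 675, 666 and 681 CPM in wild-type, 613, 537 and 576 with eat-2 mutated, 703, 659.9 and 667 with acs-20 mutated and 479, 536 and 556 with both mutated. Its pattern was that of isp-1, with a log2 change of -0.36 (SE 0.0849, adjusted p = 0.00969) in the double mutant and 0.01 in acs-20. cyc-1, which encodes cytochrome c1, changed by -0.34 (adjusted p = 0.0146), and was not called once wild-type replicate 3 was left out (adjusted p = 0.0538). ucr-2.2, a further core protein, changed by -0.46 (adjusted p = 0.0102).

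In complex IV, cytochrome c oxidase, 6 of the 7 structural subunits fell in the double mutant, 3 without wild-type replicate 1, and the median was -0.36. cox-5A had 664, 612 and 630.2 CPM in wild-type, 545, 488 and 544 with eat-2 mutated, 636, 606 and 609 with acs-20 mutated and 458, 476 and 503 with both mutated. The double mutant and eat-2 libraries were below all libraries of the other 2 genotypes, and cox-5A changed by -0.41 (SE 0.0817, adjusted p = 0.00394) in the double mutant. cox-5B and cox-6C changed by -0.40 (adjusted p = 0.00574) and -0.47 (adjusted p = 0.00922), and the 1 structural subunit not called, cox-6A, was at -0.24 (adjusted p = 0.0909). None of the other 7 cox- genes was called by edgeR or DESeq2 in the double mutant, and none had an unadjusted p under 0.05. Their log2 changes in the double mutant ran from -0.31 to -0.02 with a median of -0.18. These genes were read at 5.72 to 57.0 CPM per kilobase, below the structural subunits, and the difference between the 2 groups of cox- genes was not tested. cox-14 also shares 519 bp of exon on its strand with another gene.

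In complex V, 6 of 7 members fell in the double mutant, 3 without wild-type replicate 3, and asg-1 rose. atp-1 had 3156, 3151 and 3099.9 CPM in wild-type, 2804, 2702 and 2619 with eat-2 mutated, 3012, 3063 and 3117 with acs-20 mutated and 2212, 2433 and 2592 with both mutated, so that the 4 genotypes ordered as wild-type and acs-20, then eat-2, then the double mutant, with overlap only between wild-type and acs-20. atp-2 had 3711, 3583 and 3611 CPM in wild-type, 3382, 3078 and 3177 with eat-2 mutated, 3672, 3587 and 3637 with acs-20 mutated and 2665, 2918 and 3021 with both mutated, in the same order. Their log2 changes in the double mutant were -0.38 (SE 0.0734, adjusted p = 0.00330) and -0.34 (SE 0.0713, adjusted p = 0.00511). The peripheral stalk and coupling genes atp-3, atp-4 and atp-5 changed by -0.28, -0.35 and -0.35, and asg-2, 1 of 2 genes for subunit g, by -0.45 (adjusted p = 0.0105).

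**Figure D2:**
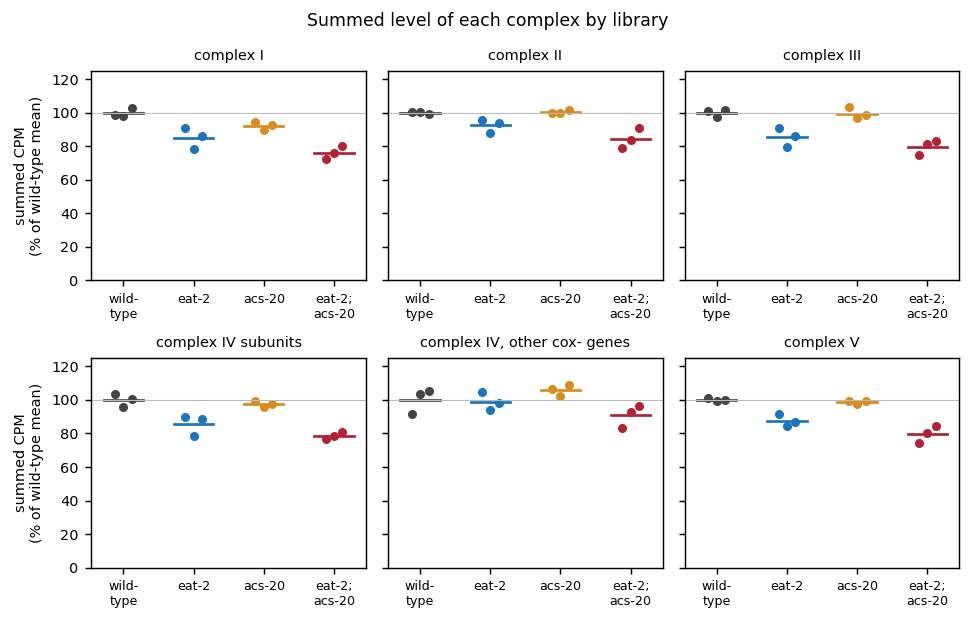
Summed CPM of the members of each complex in each library (points; vertical axis in percent of the wild-type mean, from 0), with a bar at the mean of the 3 libraries of a genotype. For complexes I, II, III, IV (structural subunits) and V the double mutant libraries lie below all wild-type libraries, while the other cox- genes overlap wild-type.

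The eat-2 mutant alone was compared with wild-type to ask how much of this was present without the acs-20 mutation. Only nuo-1 and nduf-9 fell, 2 of 63 members where 3.54% of all tested genes were called lower and 4.12% higher. The members' share, 3.17%, was close to that background. Nearly all members were on the low side, however: 58 had a log2 fold change under 0, the median was -0.21 against 0.04 over all tested genes, and 34 were lower at an unadjusted p under 0.05. Of all tested genes, 44.5% had a log2 fold change under 0 and 10.3% were lower at that p. In 35 members every eat-2 library lay below every wild-type library, as in 11.5% of all tested genes. DESeq2 called 14 members lower, and 5.21% of all tested genes. nuo-1 changed by -0.33 (SE 0.0879, adjusted p = 0.0323) and nduf-9, the ortholog of NDUFA9, by -0.37 (SE 0.0978, adjusted p = 0.0320). nduf-9 was measured at 136, 133 and 151 CPM in wild-type, 117, 101 and 106 with eat-2 mutated, 122, 120.3 and 122 with acs-20 mutated and 91.8, 102 and 112 with both mutated, and all 9 mutant libraries lay below wild-type. Each of these calls held in 7 of 12 fits that left out 1 library. Without wild-type replicate 3, for example, the adjusted p was 0.0975 for nuo-1 and 0.119 for nduf-9. By complex, the eat-2 medians were -0.23 for complex I, -0.09 for II, -0.22 for III, -0.26 for the structural subunits of IV, -0.01 for the other cox- genes and -0.21 for V.

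In the acs-20 mutant no member was called by edgeR, where 1.22% of all tested genes were called lower and 0.987% higher. At an unadjusted p under 0.05, 3 members were lower and 1 higher, against 8.03% and 5.93% of all tested genes, and DESeq2 called 1 lower, and 2.06% of all tested genes. The median was -0.04 against 0.01 over all tested genes. Complex I had a median of -0.12, with 27 of 30 members under 0 against 49.2% of all tested genes, while the other groups had medians from -0.04 to 0.10. The double mutant, compared with the eat-2 mutant, had a median of -0.15. Here asg-1 rose and no member was called lower by edgeR or DESeq2, where 1.36% of all tested genes were called higher and 0.757% lower. At an unadjusted p under 0.05, 9 members were lower, against 6.83% of all tested genes.

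Against the acs-20 mutant, 23 members fell in the double mutant and asg-1 rose, where 5.31% of all tested genes were called lower and 7.64% higher. The median was -0.29 against 0.02, and 62 of 63 members had a log2 fold change under 0, against 47.4% of all tested genes. The fallen members were 7 of complex I, 1 of complex II, 5 of complex III, 4 structural subunits of complex IV and 6 of complex V. Of them, 21 had also fallen against wild-type, a comparison that uses the same double mutant libraries, and the other 2 were ucr-2.1 and ucr-11. The count rested on single libraries: it was 5 without acs-20 replicate 1, 7 without acs-20 replicate 3, 7 and 6 without double mutant replicates 1 and 2, and 12 without wild-type replicate 1. The call held in every such fit for 4 members.

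The effect of the eat-2 mutation can be measured in 2 comparisons that share no library, in eat-2 against wild-type and in the double mutant against acs-20. 57 of 63 members, 90.5%, were lower in both, against 30.5% of all tested genes. For the acs-20 mutation, measured in acs-20 against wild-type and in the double mutant against eat-2, 43 members or 68.3% were lower in both, against 30.5% of all tested genes. The lowest of the 4 genotype means was that of the double mutant in 57 members. This count reuses the libraries of the comparisons above, and its share over all tested genes was not computed. The interaction, which is the eat-2 effect in acs-20 mutants minus that in animals with intact acs-20, had a median of -0.08 against -0.01. 1 member, asg-1, was called for it, and that was higher, where 0.139% of all tested genes were called higher and 0.0486% lower. The other 62 ranged from -0.67 to 0.12, with a smallest adjusted p of 0.658. The low end was cox-17, the member with the lowest mean level, and outside the 7 cox- genes that are not structural subunits the lowest was -0.32. Of the 62, 1 was lower at an unadjusted p under 0.05, against 2.6% of all tested genes, and DESeq2 called none.

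asg-1 (chromosome I), which like asg-2 encodes subunit g of the membrane part of the ATP synthase, went against the other called members. It was measured at 156, 167 and 157 CPM in wild-type, 136, 124 and 138 with eat-2 mutated, 164, 164 and 162 with acs-20 mutated and 215, 239 and 259 with both mutated. All 3 double mutant libraries were above every other library and all 3 eat-2 libraries were below every other library. The log2 change was 0.57 (SE 0.0915, adjusted p = 0.000912) against wild-type, 0.84 (SE 0.0921, adjusted p = 0.000195) against eat-2 and 0.54 (SE 0.0916, adjusted p = 0.00213) against acs-20, and these 3 calls held whichever library was left out. In the single mutants asg-1 did not pass the edgeR test, with -0.27 (adjusted p = 0.0932) for eat-2 and 0.03 (adjusted p = 0.912) for acs-20. DESeq2 called it lower in eat-2 (adjusted p = 0.0242) but did not call it in acs-20 (0.972). The interaction was 0.81 (SE 0.130, adjusted p = 0.0215). As a share of the summed level per length of the 2 genes, asg-1 made up 43.1% ± 3.38 in wild-type (SD, n = 3), 42.3% ± 1.56 for eat-2, 44.0% ± 1.35 for acs-20 and 60.4% ± 2.02 for the double mutant.

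The genes next to asg-1 were examined after its values were seen. Among 11 consecutive tested genes, 5 to either side of asg-1, 3 were called higher in the double mutant than in wild-type. Of all tested genes 8.94% were called higher. The 3 were adjacent: hbs-1, mrps-15 and asg-1 itself, around which the window was set. hbs-1 and mrps-15 overlap on the same strand, and asg-1 lies 323 bases from mrps-15 on the other strand. With a single double mutant strain, an effect of the mutations cannot be told apart from another difference of that strain. mrps-15, which encodes a protein of the small mitochondrial ribosomal subunit, had 29.6, 33.4 and 32.4 CPM in wild-type, 27.9, 27.4 and 29.8 with eat-2 mutated, 33.5, 30.9 and 34.4 with acs-20 mutated and 38.4, 47.5 and 49.7 with both mutated, and hbs-1 had 26.8, 28.2 and 23.1 CPM in wild-type, 26.5, 24.0 and 26.5 with eat-2 mutated, 27.5, 22.1 and 25.4 with acs-20 mutated and 34.2, 42.4 and 43.3 with both mutated. In both genes the double mutant libraries lay above all others. Their log2 changes against wild-type were 0.51 (adjusted p = 0.00595) and 0.62 (adjusted p = 0.00372), and their interactions of 0.63 (adjusted p = 0.162) and 0.70 (adjusted p = 0.177) were not called. pbs-7, a proteasome subunit gene on the other side, was lower at -0.29 (adjusted p = 0.0333). It was at -0.27 (adjusted p = 0.0814) in eat-2 against wild-type and at -0.02 in the double mutant against eat-2. The calls of hbs-1 and mrps-15 held whichever library was left out, whereas that of pbs-7 was lost without any 1 wild-type library or double mutant replicates 1 or 2 (adjusted p up to 0.0916) and with library totals alone (0.199). asg-1 shares 18 bp of exon with K07A12.5, which lies on the opposite strand. That gene had 8.09, 7.91 and 5.92 CPM in wild-type, 6.39, 8.49 and 8.67 with eat-2 mutated, 8.34, 9.58 and 7.15 with acs-20 mutated and 9.65, 8.23 and 9.73 with both mutated, and it was not called in any of the 6 contrasts.

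**Figure D3:**
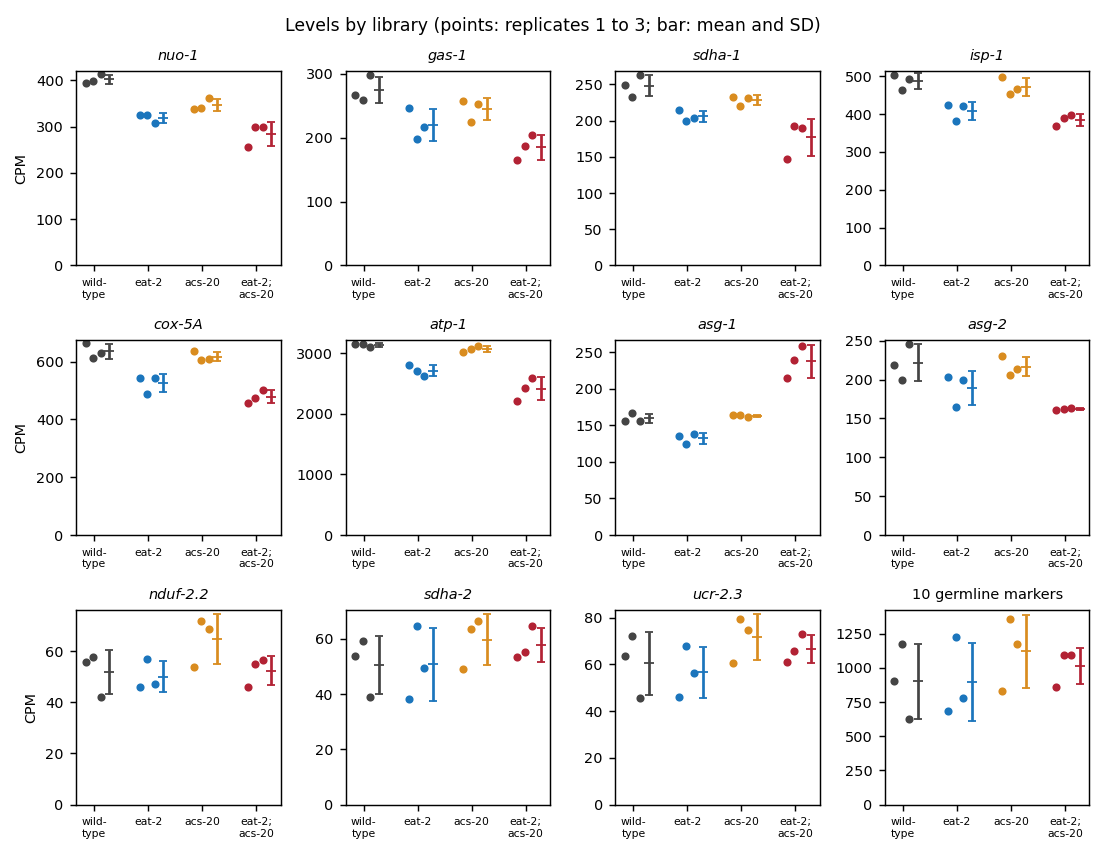
CPM (vertical axes, from 0) of 11 members and the summed CPM of 10 germline markers in each of the 12 libraries (points, replicates 1 to 3 from left to right), with the mean and SD of each genotype beside them. asg-1 is highest in the double mutant, the first 6 members and asg-2 have their lowest mean there, and nduf-2.2, sdha-2 and ucr-2.3 overlap wild-type in the double mutant.

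Of subunits with paralogs, 3 minor copies were not called lower. sdha-2, the second flavoprotein gene of complex II, had 53.7, 59.4 and 38.9 CPM in wild-type, 38.1, 64.8 and 49.5 with eat-2 mutated, 49.2, 63.5 and 66.6 with acs-20 mutated and 53.3, 55.2 and 64.8 with both mutated. The 4 genotypes overlapped, and the log2 changes of sdha-2 were 0.00 for eat-2, 0.24 for acs-20 and 0.19 for the double mutant. nduf-2.2, a paralog of gas-1, had 55.7, 57.9 and 41.9 CPM in wild-type, 45.8, 57.1 and 47.4 with eat-2 mutated, 53.8, 72.1 and 68.9 with acs-20 mutated and 46.0, 55.0 and 56.4 with both mutated, again with overlap of all genotypes. ucr-2.3, a paralog of ucr-2.1 and ucr-2.2, had 63.6, 72.0 and 45.5 CPM in wild-type, 46.0, 67.7 and 56.3 with eat-2 mutated, 60.6, 79.6 and 74.9 with acs-20 mutated and 61.2, 65.5 and 72.9 with both mutated, and was at a log2 of 0.14 in the double mutant. These 3 genes were the only members other than asg-1 with a log2 change above 0 in the double mutant, and none of the 3 was called in any contrast by edgeR or DESeq2. At an unadjusted p under 0.05 only nduf-2.2 in acs-20 was listed, at 0.32 (adjusted p = 0.352).

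As shares of the summed level per length of their paralogs, sdha-2 made up 20.2, 23.1 and 14.9% in the wild-type libraries and 29.9, 25.2 and 28.7% in the double mutant. For nduf-2.2 beside gas-1 the shares were 19.1, 20.2 and 13.7% and 24.0, 25.1 and 23.9%, and for ucr-2.3 beside both other ucr-2 genes they were 12.5, 14.4 and 9.09% and 15.6, 15.4 and 16.9%. All 3 shares were higher in every double mutant library than in every wild-type library. This did not set the double mutant apart from the single mutants, whose libraries overlapped it in all 3 shares. In eat-2 the shares ran from 17.3 to 27.7% for sdha-2, 17.4 to 24.7% for nduf-2.2 and 9.61 to 16.3% for ucr-2.3. In acs-20 nduf-2.2 ran from 19.1 to 26.6%. The shares were given no test, and how often other genes separate in this way was not computed. In all 4 genotypes the lowest library of these 3 genes was the one in which 10 germline markers summed lowest, namely wild-type replicate 3, eat-2 replicate 1, acs-20 replicate 1 and double mutant replicate 1. The marker sums were 907, 1175 and 625 CPM in wild-type, 683, 1223 and 782 for eat-2, 833, 1357 and 1174 for acs-20 and 858, 1091 and 1092 for the double mutant. Of all members 4.76% had this order, against 4.6% of all tested genes, and the part of germline content in these values was not tested.

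Other mitochondrial gene lists were compared with the share of all tested genes called lower in the double mutant, 8.62%. Of the 12 mitochondrially encoded subunits of the same complexes, 7 fell, with a median log2 of -0.58. Without wild-type replicate 3 none of these calls remained. Leaving out double mutant replicate 2 left a count of 1, and leaving out its replicate 1 a count of 4. CYTB, the cytochrome b of complex III, changed by -0.55 (adjusted p = 0.0121), COX1, the catalytic subunit of complex IV, by -0.52 (adjusted p = 0.0151), and the complex I subunit ND4 by -0.69 (adjusted p = 0.0151). COX1 was measured at 2442, 2358 and 3199 CPM in wild-type, 2528, 1919 and 2399.8 with eat-2 mutated, 2343, 1954 and 2217 with acs-20 mutated and 1825, 1725 and 2037 with both mutated. Every double mutant library and every acs-20 library lay below wild-type, while eat-2 overlapped it. In eat-2 the 12 had a median of -0.17 and in acs-20 of -0.28, with 11 and 12 under 0. None was called by edgeR in either single mutant, 0 and 2 were at an unadjusted p under 0.05, and DESeq2 called 0 and 0. Of 20 genes of the tricarboxylic acid cycle and pyruvate dehydrogenase, which supply the chain with NADH and succinate, 12 fell in the double mutant, 7 without wild-type replicate 3, and the median was -0.34. The lead genes encoded subunits of succinyl-CoA synthetase, sucl-2 at -0.60 (adjusted p = 0.00132), sucl-1 at -0.49 (adjusted p = 0.00270) and suca-1 at -0.58 (adjusted p = 0.00330). Of 9 genes of ubiquinone and rhodoquinone synthesis, 4 fell: coq-1, coq-5, coq-8 and kynu-1, a kynureninase needed to make rhodoquinone. Without wild-type replicate 3 this count was 1 and without double mutant replicate 1 it was 2. kynu-1 changed by -0.61 (adjusted p = 0.00706) in the double mutant and by -0.63 (adjusted p = 0.0123) in eat-2.

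Among 14 tested genes linked to the chain but outside the naming rule, asb-2, a subunit b gene of the ATP synthase, changed by -0.43 (adjusted p = 0.00559) and mai-2, an inhibitor of the ATP synthase, by -0.53 (adjusted p = 0.00363), and the other 12 were not called. Without eat-2 replicate 1 or 2 the count was 4. Of 13 mitochondrial import genes 4 fell, with a median of -0.28, led by tomm-22 at -0.45 (adjusted p = 0.0145), and 0 to 2 were called without wild-type replicates 1 or 3 or double mutant replicates 1 or 3. Of 69 mitochondrial ribosomal protein genes 6 fell, 3 without wild-type replicate 3 or double mutant replicate 1, and mrps-15 rose. The 6 were 8.7% of the list, a share near that of all tested genes, and the list had a median of -0.19. Of 78 cytosolic ribosomal protein genes 1 fell, rpl-41.1 at -0.44 (adjusted p = 0.0214), and their median was -0.04. Of 13 genes of the mitochondrial unfolded protein response, a chaperone program, 1 fell, or 7.69%. This was the chaperonin hsp-60 at -0.49 (adjusted p = 0.0255), whereas the mitochondrial Hsp70 gene hsp-6 was at -0.05 (adjusted p = 0.833). Of 11 antioxidant genes 3 fell, the mitochondrial superoxide dismutase sod-2 at -0.35 (adjusted p = 0.0218) and the peroxiredoxins prdx-3 at -0.39 (adjusted p = 0.00814) and prdx-2 at -0.37 (adjusted p = 0.0253). The hsp-60 call ended if wild-type replicate 2 or 3 or double mutant replicate 1 was left out, and 1 antioxidant gene was called without wild-type replicate 3 or double mutant replicate 1. Of 4 tested adenine nucleotide carrier and uncoupling protein genes, which move ADP and ATP or protons across the inner membrane, edgeR called none in the double mutant, 0 were at an unadjusted p under 0.05, DESeq2 called 0, and the median was -0.12. The call of rpl-41.1 ended without wild-type replicates 1 or 2 or double mutant replicates 1 or 2.

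**Figure D4:**
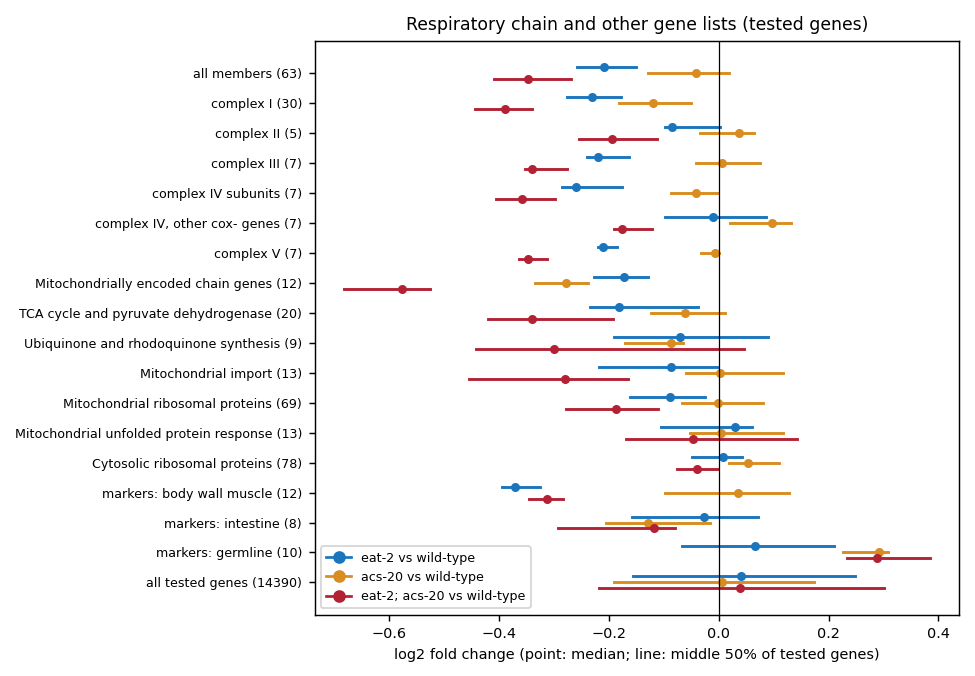
Median log2 fold change against wild-type (points) with the middle 50% of the tested genes (lines) for the members, each complex, other gene lists and cell type markers, in eat-2, acs-20 and the double mutant; the number of tested genes is in brackets. The members have a median of -0.35 in the double mutant, the cytosolic ribosomal proteins -0.04 and all tested genes 0.04.

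Body wall muscle markers summed lower in both strains that carry the eat-2 mutation. Pharyngeal muscle markers summed below wild-type in every mutant strain, and lowest in acs-20. Of 12 body wall muscle markers, 5 fell in eat-2 and 4 in the double mutant, with medians of -0.37 and -0.31, all 12 had a log2 fold change under 0 in both, and none was at 0 counts in any genotype. The eat-2 count ran from 0, without wild-type replicate 1 or eat-2 replicate 1, to 9, without double mutant replicate 1. The double mutant count was 1 or 2 without wild-type replicate 1 or 2 or double mutant replicate 1 or 2, and 7 without wild-type replicate 3. Their summed level was 10160.1 to 11913 CPM in wild-type, 8149 to 9159.5 for eat-2, 10352 to 12229.9 for acs-20 and 8147 to 9542 for the double mutant. The eat-2 and double mutant sums overlapped each other and lay below those of the other 2 genotypes. Pharyngeal muscle markers, 6 in number and none at 0 counts in any genotype, summed to 216 to 244 CPM in wild-type, 143 to 184 for eat-2, 88.7 to 137 for acs-20 and 203 to 209 for the double mutant. Against wild-type their medians were -0.55 for eat-2, -1.14 for acs-20 and -0.08 for the double mutant. In eat-2 myo-2, a pharyngeal myosin, fell, and 3 fell in acs-20. In the double mutant edgeR called none, 1 was at an unadjusted p under 0.05, and DESeq2 called 0. The eat-2 count was 0 without any 1 wild-type library or eat-2 replicate 3, 2 without eat-2 replicate 1 and 3 without acs-20 replicate 2, and the acs-20 count was 3 or 4 in all such fits. Against acs-20, 5 of the 6 rose in the double mutant, 3 without double mutant replicate 1. Of 8 epidermal markers 4 fell in the double mutant, with a median of -0.62, and these were the cuticle genes dpy-5, dpy-13, sqt-3 and bli-1. Their list summed to 7653 to 12415 CPM in wild-type, 7864 to 10327 for eat-2, 9240.4 to 11133 for acs-20 and 5049 to 6636 for the double mutant. Against wild-type, 7 of the 8 epidermal markers had a log2 fold change under 0 there. The exception was elt-3, with 36.4, 42.2 and 40.6 CPM in wild-type and 39.9, 46.2 and 38.2 with both mutated. With acs-20 mutated alone elt-3 had 33.5, 22.1 and 27.35 CPM, below every double mutant library. At these levels elt-3 adds little to the sum of its list. Among 8 intestinal markers only ges-1 fell in the double mutant, at -0.61 (adjusted p = 0.00245), and 3 were called without eat-2 replicate 1 or double mutant replicate 3 and 2 without eat-2 replicate 2. Among 9 neuronal and 10 germline markers edgeR called none in the double mutant against wild-type, with medians of 0.15 and 0.29. In that comparison these last 2 lists held 0 and 1 genes at an unadjusted p under 0.05, and DESeq2 called 0 and 0. Against acs-20, 2 of the 9 neuronal markers rose in the double mutant, where 7.64% of all tested genes were called higher. The part that muscle or epidermal content has in the respiratory chain values was not tested.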

How the data were processed

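The authors deposited 1 table of unnormalized counts per gene for each library, ending in HTSeq's summary lines. The submitters' processing notes list the tools DESeq2, HTSeq, TopHat2 and FastQC 0.11.5 but not what each did. No source used here gives the build, the annotation or the strand setting. Summary lines, among them reads in no gene at 0.975 to 0.983 per read in a gene, were left out. Symbols, exon lengths and neighbouring genes came from the Ensembl release 115 and RefSeq annotations of WBcel235, and the mitochondrially encoded genes were matched through RefSeq.

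From the counts deposited by the authors, edgeR 4.0.16 in R 4.3.3 fitted 4 group means to all 12 libraries by robust quasi-likelihood, with TMM factors (0.921 to 1.10) and edgeR's filterByExpr (minimum count 10, minimum total 15). This kept 14390 of 46739 genes and 99.8% to 99.9% of the counts. The common biological coefficient of variation was 0.153, with 8 residual degrees of freedom. 6 contrasts were tested, each adjusted over all tested genes. CPM used the TMM factors. The scripts were tested on simulated counts.

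The members, the comparison lists and the markers were chosen with earlier results of these data known. Genes named with values were, per complex, the called members with the 3 smallest p in the double mutant and in eat-2, members called in the other contrasts or against the common direction, gas-1, mev-1, isp-1, nuo-6, paralogs, and up to 3 called genes per comparison list and contrast. Others were chosen after their values were seen. tag-174 and opt-2 were not matched, and sod-3, sod-5, ant-1.2 and tin-9.2 were not tested. 11 members overlap a coding exon on the opposite strand, by at most 80 bp. Alternatives were RLE factors, library totals, no filter, the compared groups alone, ribosomal RNA genes left out, the replicate number as a block, DESeq2 1.42.0 and leaving out each library. Sequences were not used here.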

Additional observations from a re-analysis of the deposited data

Results flagged for a closer look

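The log2 change of asg-1 with the eat-2 mutation differed between strains with and without the acs-20 mutation. The log2 change was -0.27 (SE 0.0917) with acs-20 intact, where all 3 eat-2 libraries lay below wild-type, and 0.54 (SE 0.0916) in acs-20 mutants, where all 3 double mutant libraries lay above acs-20. The difference was 0.813 on the log2 scale (SE 0.130, edgeR adjusted p = 0.0215). The adjusted p ran from 0.0121 to 0.0873 when each library was left out, and the call held in 4 of 12 such fits. It ended without wild-type replicates 1 or 2, eat-2 replicates 2 or 3, acs-20 replicates 1 or 3, or double mutant replicates 2 or 3. The interaction was also called by DESeq2 (adjusted p = 9.96e-07) and with library totals alone (0.0101). The adjacent genes mrps-15 and hbs-1 were also higher in the double mutant, at 0.51 and 0.62 against wild-type. The double mutant was a single strain, so an interaction of the mutations cannot be told apart from another difference of that strain.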

How the results depend on the processing

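In eat-2 against wild-type the count of 2 became 5 with RLE factors, 1 with library totals alone, 6 with no filter on low counts, 0 in a fit of the 2 groups alone and 14 with DESeq2, and it ran from 0 to 10 when each library was left out. In acs-20 against wild-type the count of 0 became 1 with DESeq2. In the double mutant against wild-type the count of 44 became 18 with library totals alone and ran from 24 to 48 with each library left out, and 21 members were called in every such fit. Against acs-20 the count of 23 became 15 in a fit of the 2 groups alone and 37 with DESeq2, and ran from 5 to 32. The interaction call of asg-1 gave 1 or 0. With the replicate number as a block the counts of members lower in the 5 comparisons between genotypes were 7, where 2 are reported, 0, 46, 0 and 31. Other counts lay within 1.5 times the reported ones. The labels give no shared source for equal numbers. The correlation of deviations in same-numbered pairs ran from -0.091 to 0.429 and was over 0.1 in 9 of 18, so the numbers were not taken as pairs, although 7 of 12 libraries correlated best with their own number. Among 7119 values of single members no called value changed sign. Apart from the fits with fewer libraries, the cause of these shifts was not tested. With 3 libraries per genotype, a member that was not called is not shown to be unchanged.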
